A study of Mus musculus with 96 samples.

Results

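The 2 clones described here are the leukaemia clones that carried the barcodes mCHERRY_2_Barcode_626161 and mCHERRY_2_Barcode_283858. They are 2 of 4675 barcodes in the tables and 2 of the 3078 barcodes of the mCHERRY library, which marked the cells of GMP origin. They were chosen by measured values, as the clones with the largest mean shares of mCHERRY reads in mice that received GMP cells, so their size in those mice, their standing side by side and their gain over the transplanted pool are a description of that choice and carry no test. Each barcode is called a clone here, and whether both barcodes sat in the same cells cannot be told from these bulk counts. The barcodes are given by name, and no barcode sequence was used here.

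A granulocyte-monocyte progenitor (GMP) is a committed myeloid progenitor, whereas the LSK fraction (lineage-negative, Sca-1 and c-Kit positive) holds haematopoietic stem cells and multipotent progenitors. The MLL-AF9 fusion oncogene turns either kind of cell into a transplantable acute myeloid leukaemia. SPLINTR barcodes are heritable DNA tags that integrate into the genome, so that all descendants of one tagged cell carry the same barcode and the share of barcode reads stands for the share of that clone.

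LSK cells and GMPs came from the bone marrow of female C57BL/6 mice aged 6 to 8 weeks, were transduced with an MLL-AF9 retrovirus and were tagged with SPLINTR libraries. Recipients were Ptprca mice, an immunocompetent congenic strain, or NSG mice, a strain without B, T and NK cells, and the ages of the recipients are not given in the sources used here. GMP cells alone went to 4 NSG mice (numbers 13 to 16) and 4 Ptprca mice (5 to 8), and GMP cells mixed with LSK cells went to 4 NSG mice (21 to 24) and 4 Ptprca mice (17 to 20). Barcodes were read in genomic DNA of bone marrow and spleen from each of these 16 mice, except mouse 24, which had a spleen library only, giving 31 mouse libraries. The GMP pool and the mixed pool, sampled before transplantation, gave 1 library each. Mice that received LSK cells alone gave 14 libraries, used here as background. The labels give 1 pool for each recipient type, so mice are replicates of the transplant and not of the transformation. Libraries held 4257581 to 8499553 reads. The mCHERRY library made up 99.0 to 100% of reads after GMP cells alone and 20.4 to 67.6% in mixed recipients. All shares below are percentages of the mCHERRY reads of a library unless another total is named.

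In the pools the 2 clones were far from equal. mCHERRY_2_Barcode_626161 held 2.97% of the GMP pool (95% Wilson interval 2.96 to 2.99%) and ranked 2 by size. mCHERRY_2_Barcode_283858 held 0.491% (0.485 to 0.497%) and ranked 41. The first clone was thus 6.06 times the second. In the mixed pool the clones held 2.998% (2.98 to 3.02%) and 0.425% (0.416 to 0.434%), a ratio of 7.06, with ranks 2 and 53. These intervals cover the error of counting and nothing else, because barcodes were read after PCR with no molecular identifier.

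After transplantation the mean shares of the 2 clones were close to each other. Averaged over the tissues of each mouse, mCHERRY_2_Barcode_626161 held 29.1% ± 2.61 and mCHERRY_2_Barcode_283858 held 28.1% ± 2.11 after GMP cells alone (SD, n = 8 mice). Their sum was 57.2% ± 2.77. In mixed recipients they held 33.2% ± 3.66 and 28.8% ± 6.34 of mCHERRY reads (SD, n = 8). The pair were the 2 largest mCHERRY clones in 30 of 31 mouse libraries. The exception was the bone marrow of Ptprca mouse 20, where mCHERRY_2_Barcode_283858 ranked 3 with 14.7%, below mCHERRY_2_Barcode_4128 with 16.3%. Together they held more of the mCHERRY reads than all other clones combined in 13 of 16 libraries after GMP cells alone and in 13 of 15 libraries of mixed recipients. The other 5 libraries, in which the pair held 46.0 to 49.8%, were all bone marrow of Ptprca mice (5, 6 and 7 after GMP cells alone, 18 and 20 mixed).

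In the bone marrow of NSG mice 13, 14, 15 and 16, given GMP cells alone, mCHERRY_2_Barcode_626161 held 32.5, 27.9, 30.8 and 29.1%. mCHERRY_2_Barcode_283858 held 21.7, 25.1, 35.4 and 21.2% in the same libraries. The first clone was the larger one in each of these marrows but that of mouse 15. In the spleens of these mice, in the same order, mCHERRY_2_Barcode_626161 held 27.1, 24.5, 36.3 and 27.4%. mCHERRY_2_Barcode_283858 held 31.7, 36.2, 23.6 and 30.3% there. The order was turned in every one of these mice: the second clone led in the spleens of mice 13, 14 and 16, and the first clone led in the spleen of mouse 15.

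In the bone marrow of Ptprca mice 5, 6, 7 and 8, also given GMP cells alone, mCHERRY_2_Barcode_626161 held 30.6, 25.3, 28.9 and 28.0%. mCHERRY_2_Barcode_283858 held 18.8, 23.9, 19.5 and 23.2%. The first clone was the larger one in all 4 marrows, and the highest share of the second clone lay below the lowest share of the first. In the spleens of these mice mCHERRY_2_Barcode_626161 held 33.6, 30.7, 28.4 and 24.5%, whereas mCHERRY_2_Barcode_283858 held 32.9, 36.7, 33.2 and 36.0%. The spleen shares of the second clone lay above all 4 of its bone marrow shares, while the spleen and bone marrow shares of the first clone overlapped. How many other clones had tissues apart in this way was not counted. The tissue fit described below, limited to these 4 mice, called 33 clones.

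Shares of both clones ranged most widely in NSG mice given both kinds of cells. In the bone marrow of mice 21, 22 and 23 mCHERRY_2_Barcode_626161 held 22.98, 41.1 and 31.6%, and mCHERRY_2_Barcode_283858 held 27.1, 20.3 and 34.0%. In the spleens of mice 21, 22, 23 and 24 the first clone held 41.8, 34.4, 40.2 and 27.3%. The second clone held 26.0, 36.0, 54.3 and 27.0%. Both clones together reached 94.5% in the spleen of mouse 23, the highest of the 31 libraries and the one with the lowest mCHERRY part of all reads (20.4%); the next mCHERRY clone there held 3.16%. Any link between the 2 values was not tested.

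Among Ptprca mice given both kinds of cells, mCHERRY_2_Barcode_626161 held 30.0, 32.1, 38.7 and 31.3% in the bone marrow of mice 17, 18, 19 and 20. mCHERRY_2_Barcode_283858 held 23.1, 17.7, 24.5 and 14.7% there. In the spleens the first clone held 33.0, 27.4, 35.1 and 36.8% and the second 29.0, 33.3, 32.3 and 34.7%. As after GMP cells alone, the first clone was larger in all 4 marrows, and the spleen shares of the second clone did not overlap its bone marrow shares. Other clones were not counted for this here either. The tissue fit limited to these mice called 4 clones.

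The ratio of mCHERRY_2_Barcode_626161 to mCHERRY_2_Barcode_283858, near 6 or 7 in the pools, ran from 0.677 to 2.12 over the 31 mouse libraries, with a median of 1.06. In NSG mice 13 to 16 it was 1.499, 1.12, 0.870 and 1.38 in bone marrow and 0.853, 0.677, 1.54 and 0.904 in spleen. In Ptprca mice 5 to 8 it was 1.62, 1.06, 1.48 and 1.204 in bone marrow and 1.02, 0.837, 0.855 and 0.680 in spleen. The highest of these spleen ratios, from Ptprca mouse 5, lay just under the lowest of these bone marrow ratios. In mixed NSG recipients 21 to 23 it was 0.849, 2.02 and 0.929 in bone marrow, and in 21 to 24 it was 1.61, 0.956, 0.739 and 1.01 in spleen. In mixed Ptprca recipients 17 to 20 it was 1.30, 1.81, 1.58 and 2.12 in bone marrow and 1.14, 0.823, 1.09 and 1.06 in spleen. No mouse library reached the ratio of either pool, and mCHERRY_2_Barcode_626161 was the larger clone in 12 of 15 marrows and 7 of 16 spleens. By recipient type that count was 7 of 8 marrows and 2 of 8 spleens after GMP cells alone, and 5 of 7 marrows and 5 of 8 spleens in mixed recipients.

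The gain over the pool differed accordingly between the 2 clones. After GMP cells alone the mean share of mCHERRY_2_Barcode_626161 was 9.78 times its share of the pool, with a range over the 8 mice of 8.81 to 11.3. For mCHERRY_2_Barcode_283858 the gain was 57.2-fold, with a range of 52.4 to 62.4. Of the 607 mCHERRY clones with at least 100 CPM of all reads in the GMP pool, 17 had a higher mean share in these mice than in the pool. The other 590 had a lower one, and rarer pool clones were not ranked. By size of gain mCHERRY_2_Barcode_283858 ranked 3 and mCHERRY_2_Barcode_626161 ranked 8. The largest gain among the 607 clones, 81.5-fold, belonged to mCHERRY_2_Barcode_205681. In mixed recipients the gains were 11.1-fold for the first clone and 67.8-fold for the second. These were ranks 5 and 2 of the 483 mCHERRY clones with at least 100 CPM of all reads in the mixed pool. There mCHERRY made up 49.4% of reads, so the same minimum was stricter within mCHERRY and the 2 sets of clones are not alike.

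Clones of near rank in the GMP pool mostly remained small. Around mCHERRY_2_Barcode_283858 the 20 nearest clones by pool rank held 0.428 to 0.662% of the pool, and their median share in recipients of GMP cells alone was 0.00642%. Only mCHERRY_2_Barcode_88201 among them passed 1% there, with 6.31%. Around mCHERRY_2_Barcode_626161 the 10 nearest clones by pool rank held 1.12 to 3.24% of the pool. As this clone ranked 2 with 2.97%, all but the largest of them were smaller than it. Their median share in the mice was 0.0542%, and 2 of them passed 1%, the larger being mCHERRY_2_Barcode_1204592 with 10.3%. Next below the leading pair in these mice came mCHERRY_2_Barcode_1204592 with 10.3% ± 2.97, mCHERRY_2_Barcode_88201 with 6.31% ± 1.91 and mCHERRY_2_Barcode_205681 with 4.98% ± 1.32 (SD, n = 8). Over the 31 libraries the smaller member of the pair was between 0.905 and 12.7 times the next mCHERRY clone, with a median of 2.16.

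Relative to their size the 2 clones varied little from mouse to mouse. The coefficient of variation of the mouse means after GMP cells alone was 7.53% for mCHERRY_2_Barcode_283858 and 8.98% for mCHERRY_2_Barcode_626161. These were the lowest values of 24 clones with a mean of 1000 CPM (barcode reads scaled to a total of 1000000 per library) or more, whose median was 72.2%. In mixed recipients it was 11.02% for mCHERRY_2_Barcode_626161 and 21.98% for mCHERRY_2_Barcode_283858, against a median of 84.8% over 23 clones. The 2 clones are also the largest of those compared, and the part of size in these values was not tested. The bone marrow and spleen shares of the second clone lay a median of 12.3 percentage points apart after GMP cells alone, and its mouse means had an SD of 2.11 points. For mCHERRY_2_Barcode_626161 the same values were 3.45 and 2.61 points. In the 7 mixed recipients with both tissues they were 15.5 and 6.80 points for the second clone and 5.60 and 2.99 for the first. A difference of 2 libraries and an SD of means over 2 libraries are unlike measures, so their sizes are not compared.

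Spleen was compared with bone marrow of the same mouse to ask whether either clone was larger in one tissue. mCHERRY_2_Barcode_283858 held a larger share in spleen than in bone marrow in 7 of 8 mice after GMP cells alone and in 6 of 7 mixed recipients. mCHERRY_2_Barcode_626161 was larger in spleen in 3 of 8 and 4 of 7 mice. All 8 Ptprca mice had more of the second clone in spleen, by 0.71 ± 0.29 on the log2 scale (SD, n = 8). The 2 mice that ran the other way were both NSG, mouse 15 with -0.59 and mouse 21 with -0.06. A share can rise because other clones are smaller, and the 2 cannot be told apart from shares.

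The log2 difference was tested with limma, mouse as a block, over all mCHERRY clones with a mean of at least 100 CPM, and p-values were adjusted over those clones by the Benjamini-Hochberg method. After GMP cells alone the difference of mCHERRY_2_Barcode_283858 was 0.48 (SE 0.18, 95% interval 0.11 to 0.85, limma adjusted p = 0.123). For mCHERRY_2_Barcode_626161 it was -0.01 (SE 0.15, -0.33 to 0.30, limma adjusted p = 0.943). Neither of the 2 clones was called, and 2 of 88 clones were (2.27%), both larger in bone marrow. The median difference over the 88 clones was -0.86. Of 20 other settings, 3 put the second clone past the threshold and 17 did not. Its limma adjusted p was 0.519 without the trend, 0.465 with no minimum CPM and 0.863 in NSG mice alone, where the difference was 0.25. Without mouse 15 the difference of the second clone was 0.63. Only that mouse had less of the clone in spleen, so leaving it out selects on the outcome and no p is read from it. In Ptprca mice alone the difference was 0.71 (limma adjusted p = 0.00427), in a fit that called 33 clones. With all 8 mice and only clones with a mean of 1000 CPM or more tested, the same 0.48 had a limma adjusted p of 0.0364. That fit called 4 clones of a smaller set. Set against the mCHERRY reads outside the 2 clones, the second clone was 0.78 higher in spleen (limma adjusted p = 0.111), and the first turned to 0.28 (adjusted p = 0.447).

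In the 7 mixed recipients with both tissues the difference of mCHERRY_2_Barcode_283858 was 0.62 (SE 0.22, 0.18 to 1.05, limma adjusted p = 0.230). mCHERRY_2_Barcode_626161 differed by 0.14 (SE 0.20, -0.27 to 0.54, limma adjusted p = 0.642). Limma called 0 of 65 clones here (0%), with 7 clones at an unadjusted p under 0.05, and edgeR's quasi-likelihood test called 1. Without mouse 21 the difference of the second clone was 0.73. Only that mouse of the 7 had less of the clone in spleen, so no p is read from leaving it out. With a minimum of 1000 CPM the same 0.62 had a limma adjusted p of 0.0374, in a fit that called 2 clones of a smaller set. In Ptprca mice alone the second clone differed by 0.72 (limma adjusted p = 0.0556), and 4 clones were called. Of 19 other settings, 2 put the second clone past the threshold and 17 did not. Set against the mCHERRY reads outside the 2 clones, the differences were 0.91 for the first clone and 1.39 for the second (limma adjusted p = 0.487 and 0.0519).

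The ratio of the first clone to the second was lower in spleen than in bone marrow in 7 of 8 mice after GMP cells alone, by a mean of 0.49 on the log2 scale (exact two-sided sign-flip permutation p = 0.0625). In mixed recipients it was lower in 6 of 7 mice, by a mean of 0.48 (exact sign-flip permutation p = 0.125). Adjusted over the 15 permutation tests reported here, these became 0.429 and 0.469, and neither passed. In mouse 15 the log2 ratio rose by 0.82 from bone marrow to spleen and in mouse 21 by 0.92. Without mouse 15 the mean was -0.68 and without mouse 21 it was -0.71. Since each was the only mouse of its set with the opposite sign, leaving it out makes all signs alike and fixes the p at the smallest possible, so no p is read from it. Leaving out any other single mouse gave exact permutation p-values of 0.109 to 0.125 after GMP cells alone and 0.156 to 0.250 in mixed recipients.

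Whether the tissue difference itself depended on the host was tested by permuting host labels. After GMP cells alone the log2 spleen difference of mCHERRY_2_Barcode_283858 averaged 0.71 ± 0.10 in the 4 Ptprca mice and 0.25 ± 0.56 in the 4 NSG mice (SD), 0.45 apart (exact two-sided permutation p = 0.0286, the smallest that 4 against 4 allow, adjusted 0.429). As the only test at that smallest value among 15 it could not have passed the adjustment, so the adjusted p says nothing for or against a difference. Without mouse 15 the gap was 0.17, and no p is read from leaving out the only mouse with the opposite sign. Without any 1 of the Ptprca mice it was 0.42 to 0.48 (exact permutation p = 0.114 to 0.229). Without NSG mouse 13, 14 or 16 it was 0.54 to 0.55 (exact permutation p = 0.0286). In mixed recipients the gap was 0.24 (exact permutation p = 0.514). For mCHERRY_2_Barcode_626161 the gaps were 0.13 after GMP cells alone and -0.32 in mixed recipients (exact permutation p = 0.429 and 0.400), and for the log2 ratio -0.33 and -0.55 (exact permutation p = 0.600 and 0.457). Mixed recipients were compared with recipients of GMP cells alone by permutation within host. The gap was 0.12 for the second clone, 0.17 for the first and 0.05 for the ratio (permutation p = 0.615, 0.360 and 0.856).

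The tissue differences of other clones were also read in each mouse. Across 24 other mCHERRY clones, the log2 spleen difference in a mouse was set against its mean over all remaining mice. It is a description across clones that share a library. The mean joined both hosts and both recipient types, and no mean within a host was used, so r does not compare the hosts. Pearson's r was between 0.46 and 0.75 in the 8 Ptprca mice. Among NSG mice it was 0.42 and 0.34 in mice 13 and 14, and between -0.21 and 0.05 in mice 15, 16, 21, 22 and 23. Mice 15 and 21, with -0.02 and -0.12, lay within the range of the other NSG mice in this measure.

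After GMP cells alone the mean level of each clone in Ptprca mice lay less than 1 SD from that in NSG mice. mCHERRY_2_Barcode_626161 held 28.7% ± 2.46 in Ptprca recipients against 29.4% ± 3.09 in NSG recipients, and mCHERRY_2_Barcode_283858 held 28.0% ± 2.25 against 28.1% ± 2.32 (SD, n = 4 each). The log2 differences, Ptprca minus NSG, were -0.03 (95% interval -0.27 to 0.20, limma adjusted p = 0.788) and -0.0043 (-0.23 to 0.22, limma adjusted p = 0.967). Over the same mice limma called 49 of 88 clones (55.7%), 42 of them larger in Ptprca mice, and neither of the 2 was among them. Their differences were the smallest in size of the 88 clones and their standard errors the lowest, in clones chosen for abundance. For mCHERRY_2_Barcode_283858 the mean over tissues joins opposite signs: the host difference was -0.25 in bone marrow alone and 0.20 in spleen alone (limma adjusted p = 0.267 and 0.232).

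In mixed recipients the shares in Ptprca and NSG mice were 33.0% ± 3.12 and 33.3% ± 4.62 for mCHERRY_2_Barcode_626161, and 26.2% ± 1.59 and 31.5% ± 8.51 for mCHERRY_2_Barcode_283858 (SD, n = 4 each). The highest mouse mean of the second clone was 44.2%, in NSG mouse 23. The log2 differences were -0.01 (95% interval -0.32 to 0.31, limma adjusted p = 0.968) and -0.23 (-0.62 to 0.16, limma adjusted p = 0.330). Against the reads outside the 2 clones they were -0.57 and -0.76 (limma adjusted p = 0.429 and 0.358). NSG mouse 24 entered with its spleen alone. Without it the host differences in share of mCHERRY reads were -0.10 and -0.30. Limma called 24 of 67 clones (35.8%) and neither of the 2. The log2 ratio of the clones differed between hosts by -0.01 after GMP cells alone and by 0.27 in mixed recipients, Ptprca minus NSG (exact permutation p = 0.943 and 0.200).

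Mixed recipients were compared with recipients of GMP cells alone within each host, on the share of mCHERRY reads, to ask whether LSK cells alongside altered either clone. In Ptprca mice mCHERRY_2_Barcode_626161 held 33.0% with and 28.7% without LSK cells, a log2 difference of 0.20 (95% interval -0.05 to 0.44, limma adjusted p = 0.523). mCHERRY_2_Barcode_283858 held 26.2% and 28.0%, a difference of -0.10 (-0.34 to 0.15, limma adjusted p = 0.793). Limma called 2 of 101 clones in this comparison (1.98%), and neither of the leading pair. In NSG mice the differences were 0.17 for the first clone (-0.16 to 0.51, limma adjusted p = 0.627) and 0.13 for the second (-0.22 to 0.48, limma adjusted p = 0.712), with 2 of 48 clones called (4.17%). Mouse 24 entered here with its spleen alone. Against the reads outside the 2 clones these NSG differences were 0.85 and 0.79 (limma adjusted p = 0.321 and 0.408), and in Ptprca mice they were 0.29 and -0.0020 (limma adjusted p = 0.602 and 0.991). The log2 ratio of the clones was 0.31 higher with LSK cells in Ptprca mice and 0.03 higher in NSG mice (exact permutation p = 0.0857 and 0.914, adjusted 0.429 and 0.943). Mouse means of the ratio in Ptprca mice were 0.39 ± 0.14 with and 0.08 ± 0.24 without LSK cells on the log2 scale (SD, n = 4 each), and the groups overlapped.

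As parts of all reads the clones were smaller in mixed recipients, where barcodes of the other libraries, chiefly the GFP library of the LSK cells, took the rest. mCHERRY_2_Barcode_626161 held 19.7% ± 2.56 of the whole library in mixed recipients of the Ptprca strain and 13.4% ± 3.13 in those of the NSG strain, and mCHERRY_2_Barcode_283858 held 15.4% ± 1.80 and 12.4% ± 0.779 (SD, n = 4 each). After GMP cells alone the pair were the 2 largest of all barcodes in 16 of 16 libraries. In mixed recipients they were so in 3 of 15 libraries, and one of them was the largest of all barcodes in 6 of 15. The lowest standing was in the spleen of NSG mouse 23, with ranks 6 and 4 among all barcodes.

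Over the 31 mouse libraries the log2 levels of the 2 clones had a Pearson's r of 0.01 and a Spearman's rho of -0.06 with each other. Among 25 mCHERRY clones with a mean of 1000 CPM or more in these libraries, the levels most like those of mCHERRY_2_Barcode_626161 were those of mCHERRY_2_Barcode_532289 (r = 0.15), and those most like mCHERRY_2_Barcode_283858 were of mCHERRY_2_Barcode_74010 (r = 0.21). These values are low, the points share libraries and the shares of a library sum to a fixed total, so they single out no companion of either clone.

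Background was read in mice that received no GMP cells. Both barcodes were seen in all 14 libraries of LSK recipients, mCHERRY_2_Barcode_626161 at 3.67 to 250 CPM with a median of 12.2, and mCHERRY_2_Barcode_283858 at 2.62 to 195 CPM with a median of 9.05. The highest values of both were in the bone marrow of NSG mouse 12. In the LSK pool they were at 8.00 and 7.49 CPM, from 47 and 44 reads. The ratio of the 2 barcodes in LSK recipients ran from 0.690 to 1.94 with a median of 1.27, and in the LSK pool it was 1.07. It thus lay within the range of the GMP leukaemias and not near that of the GMP pool, also in the LSK pool library itself. The source of these reads was not tested.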

How the data were processed

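The authors deposited 2 tables, 1 per host strain, of SPLINTR barcode abundance in CPM (barcode reads scaled to a fixed total), and both list the pools. Per the submitters' processing notes Bowtie 1.2.2 and R 3.6 were used; the settings and filters are not given in the sources used here. Each of the 48 columns sums to 1000000 CPM and stands for 2 PCR duplicates collapsed by the authors, in a way not given here, so duplicates were not treated as replicates. The labels name genomic DNA, whereas their extraction text describes a droplet single-cell preparation. Dividing a column by its smallest value gave whole reads for 100% of values (within 0.01), which supplied the depths. No columns of per-sample values were left out.

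CPM were rescaled to the mCHERRY library. The mouse was the replicate: for hosts and recipient types the shares of its tissues were averaged, and for tissues it was a block, since the labels place both tissues in 1 animal. Single clones were tested with limma 3.58.1 in R 4.3.3 (lmFit, eBayes with trend, two-sided) on log2(CPM + 10), over all mCHERRY clones with a mean of 100 CPM or more, with Benjamini-Hochberg adjustment and a threshold of 0.05. A fold change on this scale is understated for low clones, not for the 2 described. Ratios and tissue differences were tested by exact permutation over mice (Python 3.11.15, numpy 2.4.6). edgeR 4.0.16 on the recovered reads was an alternative chosen after the files had been seen. The fits were tested on simulated data. Mouse 24 was left out of tissue tests and entered the other comparisons with its spleen alone.

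The 2 clones, the comparisons and the lists were chosen with earlier results of these data known. Named besides the 2 clones were the next 3 clones by mean share after GMP cells alone and, for each of the 2, those with the most similar levels. mCHERRY_2_Barcode_4128, mCHERRY_2_Barcode_205681 as the clone of largest gain among the pool clones ranked, and the pool neighbours were named after their values had been seen. P-values rest on the spread between these mice, all from shared pools. Those of limma also draw on the spread of the other clones tested.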

Additional observations from a re-analysis of the deposited data

Results flagged for a closer look

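NSG mouse 15 stood apart from the other mice given GMP cells alone in its tissue differences. Its log2 spleen over bone marrow share of mCHERRY_2_Barcode_283858 was -0.59, and its log2 ratio of mCHERRY_2_Barcode_626161 to mCHERRY_2_Barcode_283858 was 0.82 higher in spleen. Both values lay beyond Dixon's limit among the 4 NSG mice and again among the 8 mice of both hosts. These are 4 flags in 36 groups examined, of which chance flags about 1 in 20, and the groups overlap. Mouse 21, a mixed NSG recipient, had a log2 ratio 0.92 higher in spleen and no flag among the 7 mixed recipients. The limit was not applied to the 3 mixed NSG mice with both tissues by themselves. The cause in either mouse was not tested.

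The tissue difference of mCHERRY_2_Barcode_283858 after GMP cells alone was 0.45 larger on the log2 scale in Ptprca than in NSG mice (exact permutation p = 0.0286, adjusted 0.429). That p is the smallest 4 against 4 mice allow and alone could not pass adjustment over 15 tests, and without mouse 15 the gap was 0.17.

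In mice that received no GMP cells, mCHERRY_2_Barcode_626161 was present at a median of 12.2 CPM and mCHERRY_2_Barcode_283858 at a median of 9.05 CPM over 14 libraries. Both are above the 3 reads that a count of 0 allows, with at least 28 and 20 reads in every library.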

How the results depend on the processing

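Over 33 results and 508 alternatives, 389 kept their direction and their side of the threshold (for counts of clones, a like size); the causes of the changes below were not tested except where stated. Values are log2 differences. Scored on CPM of all reads as deposited, which falls where LSK barcodes share the library, mixed minus alone was -0.55 and -0.87 in Ptprca and -1.16 and -1.18 in NSG mice for mCHERRY_2_Barcode_626161 and mCHERRY_2_Barcode_283858 (limma adjusted p = 0.0127, 0.000366, 3.84e-05 and 6.15e-06). On the same scale Ptprca minus NSG in mixed recipients was 0.58 and 0.31, and the spleen difference of mCHERRY_2_Barcode_626161 in mixed recipients was -0.083. Set over the reads outside the 2 clones, mCHERRY_2_Barcode_626161 was 0.28 higher in spleen after GMP cells alone, mCHERRY_2_Barcode_283858 differed between hosts by 0.038, and its tissue gap between hosts in mixed recipients was -0.55. With a minimum of 1000 CPM fewer clones are adjusted over, and the spleen difference of mCHERRY_2_Barcode_283858, still 0.48 alone and 0.62 mixed, passed (limma adjusted p = 0.0364 and 0.0374). In Ptprca mice alone it was 0.71, and that of mCHERRY_2_Barcode_626161 was 0.051. Between hosts after GMP cells alone, spleen by itself gave 0.031 and 0.20 for the 2 clones, edgeR gave 0.0070 for mCHERRY_2_Barcode_283858, and bone marrow gave 0.15 for the ratio. In mixed recipients bone marrow gave 0.081 for mCHERRY_2_Barcode_626161 between hosts and spleen gave -0.022 for the ratio. The ratio with and without LSK cells in NSG mice was -0.048 by the median and -0.025 in bone marrow. With no replicate block, against the paired test of the mouse, the tissue difference of the ratio after GMP cells alone remained -0.49 (permutation p = 0.0149, unadjusted).

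Leaving out 1 mouse at a time, the tissue difference of the ratio ranged from -0.68 to -0.44 after GMP cells alone and from -0.71 to -0.37 in mixed recipients. Its host difference ranged from -0.11 to 0.063 and from 0.15 to 0.40 (the latter without mouse 22). Mixed minus alone of the ratio ranged from 0.24 to 0.41 in Ptprca (the latter without mouse 5) and from -0.10 to 0.15 in NSG mice. Leaving out mouse 22 or mouse 5 ends the overlap of the groups and fixes the p at the smallest possible, so no p is read from either. The tissue gap of mCHERRY_2_Barcode_283858 ranged from 0.17 to 0.55 between hosts after GMP cells alone, from -0.033 to 0.41 in mixed recipients and from -0.020 to 0.25 between recipient types; that of the ratio ranged from -0.49 to 0.059 between hosts and from -0.22 to 0.28 between recipient types. The spleen difference of mCHERRY_2_Barcode_283858 ranged from 0.43 to 0.63 and, mixed, from 0.51 to 0.73, and that of mCHERRY_2_Barcode_626161 alone from -0.054 to 0.023. Host differences ranged from -0.087 to 0.032 and from -0.10 to 0.057 (mixed) for mCHERRY_2_Barcode_626161, and from -0.046 to 0.038 for mCHERRY_2_Barcode_283858, whose mixed minus alone in NSG mice ranged from -0.044 to 0.20.

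Counts of clones called moved most. Between tissues they ranged over all alternatives from 0 to 33 after GMP cells alone (33 in Ptprca mice alone, 0 with no replicate block, with no minimum CPM or with edgeR) and from 0 to 4 in mixed recipients, between hosts from 8 to 59 and from 5 to 38, and with against without LSK cells from 0 to 10 in Ptprca and 0 to 9 in NSG mice.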
